A study of Homo sapiens with 23 samples.

Results

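PLAGL1 and other imprinted genes that act on growth were followed in thalamus organoids (ThOs), with the question of whether a low PLAGL1 level in c-JUN knockout ThOs at day 25 was shared by other imprinted genes. The genes were chosen by name (PLAGL1, PEG3, PEG10, MEST, CDKN1C and GNAS), and the choice followed from the PLAGL1 values of WT and KO at day 25. Of these 6 genes, 5 are among the 9497 genes of the expression tables, and PEG3 was not analysed here.

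The ThOs were grown from H1 cells, an established human embryonic stem cell line, and RNA-seq was made at day 25 and day 30. The 12 RNA-seq libraries form 6 groups of 2: wild type (WT), c-JUN knockout (KO) and the knockout with c-JUN added back (OE, labelled cJunKO+cJun) at each day. In OE the c-JUN came from a doxycycline-induced transgene in knockout cells, so OE and KO share the knockout background. Per the labels each library held 3 pooled organoids, and the study used 2 knockout clones without the labels saying which clone a library came from. The CUT&Tag and ATAC-seq samples, 11 in all, were not used here.

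Each table held 1 normalized expression value per gene, with no unit. All libraries had the same median (106) and maximum (9910), and the lowest value was 11 in each. These values do not show whether 11 lies above background, or whether a gene that is not listed was unexpressed. The depth of the libraries cannot be read from these values. Levels are compared here between libraries for 1 gene, not between genes. In bulk RNA, fewer cells of a type and less RNA per cell cannot be told apart. The JUN transcript was 128 to 162 in WT, 196 to 353 in KO and 202 to 362 in OE. JUN was thus not lower in KO than in WT, and OE overlapped KO despite its transgene. The transcript therefore bears out neither the KO nor the OE label. Whether the knocked-out gene still makes a transcript is not shown by these values. Every direction below rests on the labels, with WT, KO and OE standing for the libraries labelled so. The study checked the knockout by western blot and RT-qPCR, which is not analysed here. KO replicates differed more from each other than other replicates did: 17.4% of genes were at least 2-fold apart in KO at day 25 and 21.5% at day 30, against 1.75% to 4.45% in the other groups. Of the thalamus markers 6 of 15 were listed, TCF7L2 among them with 109 to 465 over the groups, while GBX2 and OLIG3 were not analysed here. All 12 neuron markers were listed, and no pluripotency marker of 7 was.

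Imprinted genes are expressed mainly from 1 parental allele, because a methylation mark set in the egg or sperm is kept at a control region. Many act on fetal growth and on the balance of dividing and differentiating cells. PLAGL1 (ZAC1) is a zinc finger transcription factor expressed from the paternal allele, and it has been placed in a network of imprinted growth genes. PEG10 is a retrotransposon-derived gag-like protein and MEST an alpha/beta hydrolase family protein, both expressed from the paternal allele. CDKN1C (p57) is an inhibitor of cyclin-dependent kinases expressed from the maternal allele. GNAS encodes the stimulatory G protein alpha subunit and further transcripts from other promoters, some maternal, some paternal and some from both alleles. c-JUN is a subunit of the transcription factor AP-1, whose classical binding site is TGANTCA with C or G at the N.

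The promoter sequences below show why a gene-level value mixes several transcripts for these genes, and where the letters TGANTCA occur. In the RefSeq table (GRCh38.p14), 3 of the 5 listed genes had windows from 250 bases before to 50 bases after an annotated start: PLAGL1 had 5, MEST 5 and GNAS 6. PEG10 and CDKN1C are named only. PLAGL1 windows ranged from 2 to 39 CpG, against a median of 14 over 35116 windows of all genes, and 7.61% of all windows had more than 39. GNAS windows ranged from 10 to 43 CpG and MEST windows from 13 to 25. The letters TGANTCA were searched with any base at N, which is wider than the classical AP-1 site. They were found in 1 window of each of the 3 genes and in 7.71% of all windows. The PLAGL1 and GNAS matches have C at N, and the base at N of the MEST match is not given here. The match lies 178 bases before a PLAGL1 start, 189 bases before a GNAS start and 41 bases after a MEST start. A match is only a description of the letters. The 250 bases before the start are printed 5′ to 3′ in transcript direction for the CpG-richest PLAGL1 window (chr6:144008260-144008509, minus strand, CpG in capitals), for the PLAGL1 window with the motif (chr6:143961413-143961662, minus strand, motif in capitals) and for the GNAS window with the motif (chr20:58852466-58852715, plus strand, motif in capitals).
PLAGL1, CpG-richest: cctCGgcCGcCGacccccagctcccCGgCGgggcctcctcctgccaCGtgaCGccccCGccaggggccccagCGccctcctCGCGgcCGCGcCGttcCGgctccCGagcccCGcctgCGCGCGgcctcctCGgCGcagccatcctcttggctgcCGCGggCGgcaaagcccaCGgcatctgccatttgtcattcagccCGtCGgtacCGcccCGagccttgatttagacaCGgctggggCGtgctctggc
PLAGL1, motif: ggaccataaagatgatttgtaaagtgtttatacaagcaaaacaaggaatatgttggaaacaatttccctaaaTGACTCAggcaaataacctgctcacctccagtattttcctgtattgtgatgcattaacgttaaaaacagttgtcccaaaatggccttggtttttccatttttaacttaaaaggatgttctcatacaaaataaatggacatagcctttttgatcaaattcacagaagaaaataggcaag
GNAS, motif: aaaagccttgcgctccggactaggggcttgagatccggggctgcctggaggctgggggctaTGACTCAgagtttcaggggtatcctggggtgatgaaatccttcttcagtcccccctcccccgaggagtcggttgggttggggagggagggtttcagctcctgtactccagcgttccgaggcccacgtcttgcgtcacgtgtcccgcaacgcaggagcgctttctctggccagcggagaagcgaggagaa
The CpG-richest stretch of PLAGL1 holds 32 CpG, and the stretch with the motif holds 1, so these starts lie in sequence of very different kinds. Which of these starts was used in the ThOs is not resolved by the gene-level values.

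PLAGL1 (ENSG00000118495, chromosome 6, 143940300 to 144064599, minus strand, GRCh38) was highest in WT at day 25, with values of 310 and 254. In KO at day 25 it was 85 and 26, and in OE at day 25 it was 112 and 166. The 3 genotypes did not overlap at day 25, with OE between KO and WT. These values led to the choice of the gene, so they are a description: the means were 282 ± 39.6 (SD, n = 2) in WT, 55.5 ± 41.7 in KO and 139 ± 38.2 in OE. The log2 fold change of KO against WT was -2.55 (SE 0.52) on the log2(value + 1) scale. It was -1.71 without KO day 25 replicate 2, the library with 26, and -3.38 without KO day 25 replicate 1. OE against KO was 1.51 and OE against WT -1.04 on that scale. The former was 0.68 when the KO library with 26 was left out, and 2.35 when the one with 85 was.

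At day 30, PLAGL1 was 117 and 136 in WT, 152 and 60 in KO and 132 and 98 in OE. The KO libraries lay on both sides of the WT and OE libraries, so the groups overlapped. KO against WT was -0.40 (SE 0.52, limma adjusted p = 0.809), OE against KO 0.25 (adjusted p = 0.855) and OE against WT -0.15 (adjusted p = 1). Without KO day 30 replicate 2 the first of these was 0.27 and OE against KO was -0.42, so these directions rested on 1 library. The effect of KO was 2.15 less negative at day 30 than at day 25 on the log2 scale, which is given without a test since day 25 values chose the gene. In WT itself PLAGL1 was lower at day 30 than at day 25 without overlap (-1.15). In KO the difference between days was 1.00, but the libraries of the days overlapped. In OE the change between days was -0.26 (adjusted p = 1).

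By mean, the order of PLAGL1 was WT day 25, OE day 25 (139), WT day 30 (126.5), OE day 30 (115), KO day 30 (106) and KO day 25 (55.5). From OE day 25 down to KO day 25 each group overlapped its neighbour in this order, while the WT day 25 libraries stood above all other libraries. The replicates of KO were 3.19-fold apart at day 25, and 3.75% of genes had a larger gap in that group. At day 30 they were 2.51-fold apart, with 11.2% of genes above that.

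**Figure D1:**
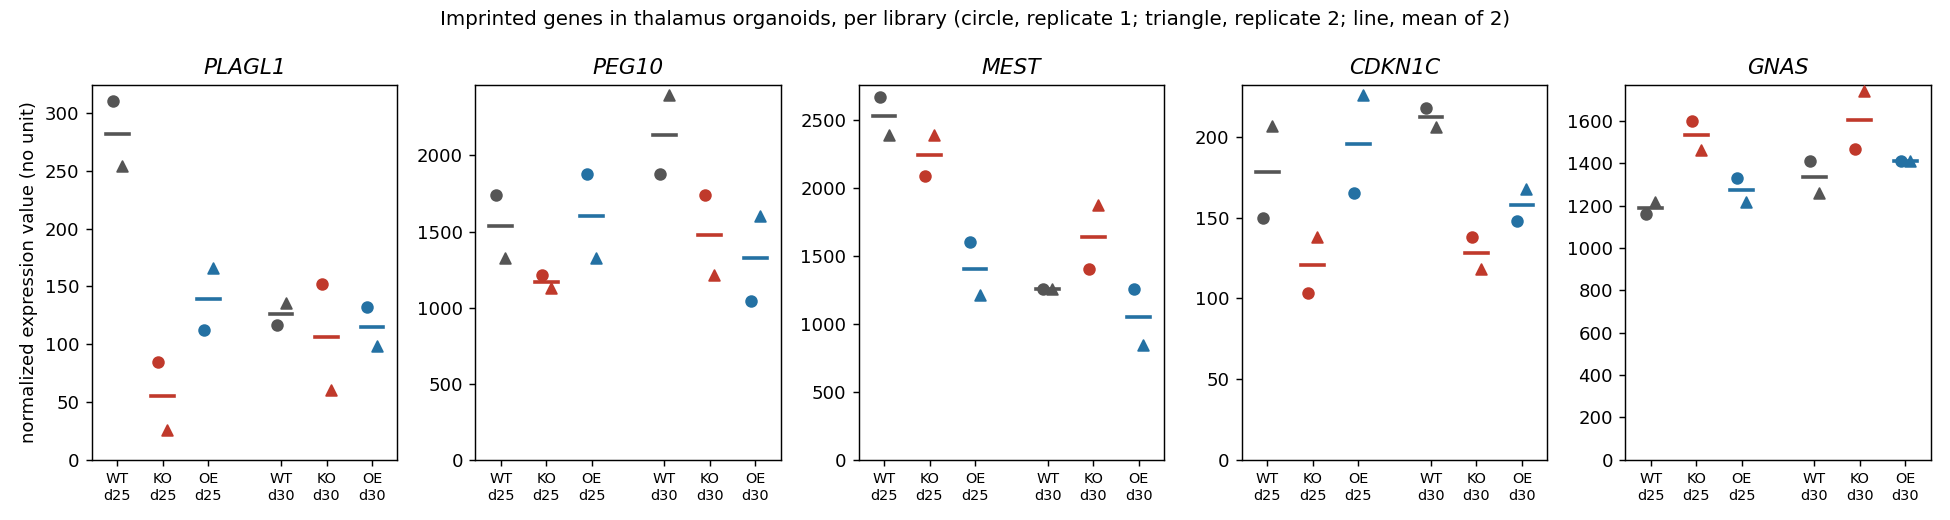
Normalized expression value (vertical axis, no unit, from 0) of PLAGL1, PEG10, MEST, CDKN1C and GNAS in each of the 12 libraries by genotype and day; circles are replicate 1, triangles replicate 2 and lines the mean of the 2. PLAGL1 was 85 and 26 in the KO libraries of day 25, CDKN1C lay between 103 and 138 in the 4 KO libraries, and GNAS between 1466 and 1742 in them.

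CDKN1C (ENSG00000129757, chromosome 11, 2883213 to 2885775, minus strand) had its lowest values in KO at both days. It was 150 and 207 in WT, 103 and 138 in KO and 165 and 226 in OE at day 25. It was 218 and 206 in WT, 138 and 118 in KO and 148 and 168 in OE at day 30. All 4 KO libraries thus lay below all 4 WT and all 4 OE libraries, a pattern shown by 103 of 9497 genes (1.08%). KO against WT was -0.56 (SE 0.26) at day 25 and -0.73 at day 30, the latter with a limma adjusted p of 0.643, so it did not pass over all genes. OE against KO was 0.69 at day 25 and 0.30 at day 30 (adjusted p = 0.645). Leaving out 1 library at a time, KO against WT stayed between -0.79 and -0.33 at day 25 and between -0.84 and -0.62 at day 30. The highest KO library (138) lay 10 units below the lowest OE library (148), so the separation from OE was narrow.

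GNAS (ENSG00000087460, chromosome 20, 58839718 to 58911192, plus strand) went the other way. It was 1159 and 1217 in WT, 1603 and 1466 in KO and 1332 and 1216 in OE at day 25. It was 1412 and 1261 in WT, 1468 and 1742 in KO and 1412 and 1412 in OE at day 30. All 4 KO libraries lay above all 4 WT and all 4 OE libraries, as they did for 122 of 9497 genes (1.28%). The size was small: KO against WT was 0.37 (SE 0.14) at day 25 and 0.26 at day 30 (limma adjusted p = 0.643). OE against KO was -0.27 at day 25 and -0.18 at day 30 (adjusted p = 0.608). GNAS was the steadiest of the 5 genes, since its highest value was 1.5 times its lowest and 95.5% of genes had a larger ratio. The identical values of OE at day 30 reflect that high genes share a limited set of values in these tables.

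PEG10 (ENSG00000242265, chromosome 7, 94656325 to 94669695, plus strand) was 1739 and 1329 in WT, 1212 and 1128 in KO and 1879 and 1329 in OE at day 25. At day 30 it was 1879 and 2396 in WT, 1739 and 1212 in KO and 1044 and 1603 in OE. KO lay below WT of the same day without overlap at both days, which held for 5.6% of genes, and OE did not stand above KO at day 30. KO against WT was -0.38 (SE 0.26) at day 25 and -0.55 at day 30 (limma adjusted p = 0.643). OE against WT at day 30 was -0.71 (limma adjusted p = 0.952). PEG10 overlaps SGCE, which lies on the opposite strand, and though the library preparation (dUTP) marked the strand, whether the counting used it is not stated, so reads of the overlap could be shared.

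MEST (ENSG00000106484, chromosome 7, 130486171 to 130506465, plus strand) separated by day in WT, and OE lay below KO at both days. It was 2670 and 2394 in WT, 2090 and 2394 in KO and 1602 and 1212 in OE at day 25. It was 1258 and 1258 in WT, 1408 and 1879 in KO and 1258 and 849 in OE at day 30. KO and WT shared the value 2394 at day 25, where KO against WT was -0.18 (SE 0.21), and KO was the higher at day 30 (0.37, limma adjusted p = 0.646). OE was below KO without overlap at both days, by a log2 fold change of -0.68 at day 25 and -0.65 at day 30 (limma adjusted p = 0.388), as were 22.4% and 18.5% of all genes. OE was also below WT at day 25 (-0.86), while at day 30 they shared the value 1258 (-0.28, limma adjusted p = 1). In WT, MEST was about 1 log2 unit lower at day 30 (-1.01), as PLAGL1 was (-1.15), while PEG10 (0.48), CDKN1C (0.26) and GNAS (0.17) were higher. MEST overlaps the end of COPG2 on the opposite strand, with the same limit as for PEG10.

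Set side by side, the KO against WT log2 fold changes at day 25 were -2.55 for PLAGL1, -0.56 for CDKN1C, -0.38 for PEG10, -0.18 for MEST and 0.37 for GNAS. PLAGL1 is left out of the reading of overlap at day 25, since its values there led to its choice. Of the other genes, KO was below WT without overlap for CDKN1C and PEG10 and above WT for GNAS. Of all genes, 21.3% were below and 19.3% above. At day 30 KO was below WT without overlap for 2 of the 5 genes (background 17.4%) and above for 2 (background 16.5%). In the comparisons of day 30 libraries, 0 of the 5 genes were called by limma at an adjusted p under 0.05 and at least 2-fold, against 0.0% of all genes for KO against WT, 0.0842% for OE against KO and 0.0316% for OE against WT. An unadjusted p under 0.05 was reached by 1 of 5 in each of these 3 comparisons (CDKN1C, MEST and PEG10), where 7.36%, 10.9% and 4.07% of all genes reached it. In OE day 30 against OE day 25 it was 0 of 5 called (0.0% of all genes), and 0 of 5 at an unadjusted p under 0.05 (1.9% of all genes). These comparisons share groups, so they are not independent.

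The other imprinted genes were read from a list by parental allele. Of 59 such genes, 23 are in the tables: 11 of 30 paternally expressed, 3 of 19 maternally expressed and 9 of 10 with isoform- or tissue-dependent imprinting. In KO against WT at day 25, limma called 0 of the 23 (background 0.0105%), with 3 at an unadjusted p under 0.05 (background 13.4%). A looser threshold was an unadjusted p under 0.05 with at least 2-fold. By it, 2 of 23 were lower (background 2.84%) and 0 higher (2.46%), where 5.31% of all genes passed in either direction. The median log2 fold change of the 23 was 0.13, against -0.02 over all genes, and their log2 fold changes ran from -1.29 to 0.69.

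The 2 genes past the looser threshold at day 25 were IGF2R and ZNF331. IGF2R, the receptor that clears IGF2, was 256 and 214 in WT, 118 and 107 in KO and 184 and 207 in OE at day 25. The KO libraries lay below the WT libraries by a log2 fold change of -1.05 (SE 0.22, limma adjusted p = 0.171), and OE lay between. At day 30 IGF2R was 156 and 160 in WT and 144 and 144 in KO (-0.13, adjusted p = 0.850). ZNF331, a zinc finger protein, was 70 and 68 in WT, 48 and 18 in KO and 64 and 52 in OE at day 25 (KO against WT -1.20, SE 0.40, adjusted p = 0.253). The ZNF331 value rested on the library with 18, KO day 25 replicate 2: leaving it out gave -0.51. Leaving out the library with 48 gave -1.88 (limma adjusted p = 0.0450). With only the 4 libraries compared in the fit, ZNF331 no longer passed the looser threshold (adjusted p = 0.579). IGF2R moved less: it was -0.98 without KO day 25 replicate 2 and -0.92 without WT day 25 replicate 1, both just under 2-fold.

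DLK1, a Notch-related ligand expressed from the paternal allele, was 150 and 153 in WT and 45 and 84 in KO at day 25. This was the lowest log2 fold change among the 23 (-1.29), with a large error (SE 0.68, adjusted p = 0.442 by limma). SNRPN, a splicing protein gene of the Prader-Willi region, was 224 and 289 in WT and 441 and 385 in KO (0.69, SE 0.23, limma adjusted p = 0.253). NDN, a growth suppressor of the same region, was 226 and 297 in WT and 310 and 312 in KO (0.26, adjusted p = 0.618). SNRPN overlaps SNHG14 on the same strand, so their values may share reads. Paternally expressed genes lay on both sides of 0 at day 25, with 7 of 11 above it.

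At day 30, limma called 0 of 23 in KO against WT (background 0.0%), with 1 at an unadjusted p under 0.05 (background 7.36%). The same gene was also the 1 past the looser threshold (background 2.94%). That gene was GRB10, an adaptor that dampens insulin and IGF receptor signalling. It was 187 and 210 in WT, 140 and 49 in KO and 174 and 140 in OE (KO against WT -1.25, SE 0.38, limma adjusted p = 0.643). The KO replicates of GRB10 were apart, and the size rested on the library with 49: the log2 fold change was -0.50 without KO day 30 replicate 2 (limma adjusted p = 1), past no threshold, and -1.99 without KO day 30 replicate 1 (adjusted p = 0.00173). Over both days, GRB10 and IGF2R were below all 4 WT libraries in all 4 KO libraries (3.14% of genes were), and 0 of the 23 stood apart from both WT and OE in the way of CDKN1C or GNAS.

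In OE against KO, limma called 0 of 23 at day 25 (background 0.274%), with 4 at an unadjusted p under 0.05 (background 17.8%), and 0 of 23 at day 30 (background 0.0842%), with 1 (background 10.9%). None passed the looser threshold at either day (background 8.57% and 5.38%). In OE against WT it called 0 of 23 at day 25 (background 0.0%), with 1 at an unadjusted p under 0.05 (background 4.18%), and 0 of 23 at day 30 (background 0.0316%), with 0. Past the looser threshold there was 1 gene at day 25 (background 1.57%) and none at day 30 (background 1.44%). The gene at day 25 was NNAT (neuronatin), a small membrane proteolipid expressed from the paternal allele. NNAT was 323 and 388 in WT and 721 and 748 in OE at day 25 (1.05, SE 0.41, adjusted p = 1 by limma), and KO lay between with 616 and 430. NNAT lies within BLCAP on the opposite strand, with the limit given for PEG10.

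Between the days, KCNQ1OT1, the paternally expressed antisense transcript of the domain that holds CDKN1C, was lower at day 30 in each genotype. It was 3452 and 946 in WT, 1738 and 922 in KO and 1603 and 1011 in OE at day 25, and 787 and 875, 449 and 674, and 628 and 552 at day 30. The log2 fold changes were -1.12 in WT, -1.20 in KO and -1.11 in OE (SE 0.50), with adjusted p of 1, 0.339 and 1 by limma. WT day 25 replicate 1 stood apart for it, since only 0.221% of genes had a larger gap between the replicates of that group. Of the 23 imprinted genes, limma called 0 between the days in WT, KO or OE (background 0.0% in each). At an unadjusted p under 0.05 there were 4 in WT (background 4.3%), 7 in KO (background 13.2%) and 1 in OE (1.9%). Past the looser threshold there was KCNQ1OT1 in WT (1.17%) and in OE (0.727%), and 4 genes in KO (5.42%). Beside KCNQ1OT1 these were GRB10, lower at day 30 in KO (-1.10, adjusted p = 0.308), and NAP1L5 (1.09, adjusted p = 0.308) and ZNF331 (1.08, adjusted p = 0.310), both higher. NAP1L5, a nucleosome assembly protein relative, was 45 and 28 in KO at day 25 and 54 and 109 at day 30. CDKN1C did not follow the order of KCNQ1OT1: its day 30 against day 25 values were 0.26 in WT, 0.10 in KO and -0.29 in OE.

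**Figure D2:**
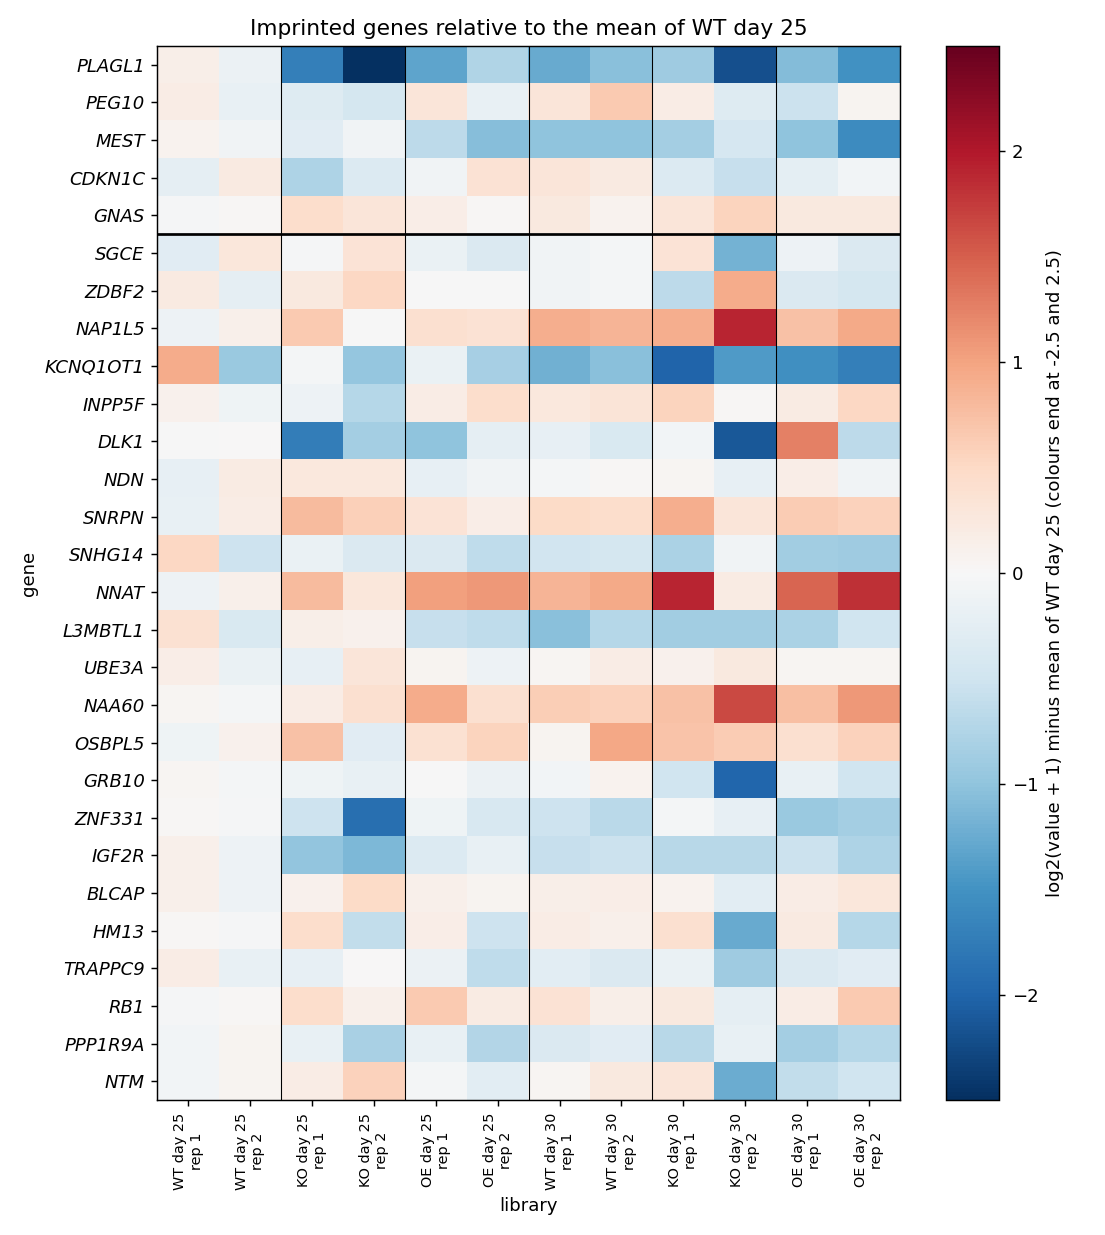
log2(value + 1) of the 5 genes (above the line) and 23 other imprinted genes (rows) in each of the 12 libraries (columns), minus the mean of WT day 25; red is higher and blue lower, and colours end at -2.5 and 2.5. The PLAGL1 row is blue in every library outside WT day 25 and darkest in KO day 25 replicate 2, while the rows of the other genes show no common colour in KO.

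**Figure D3:**
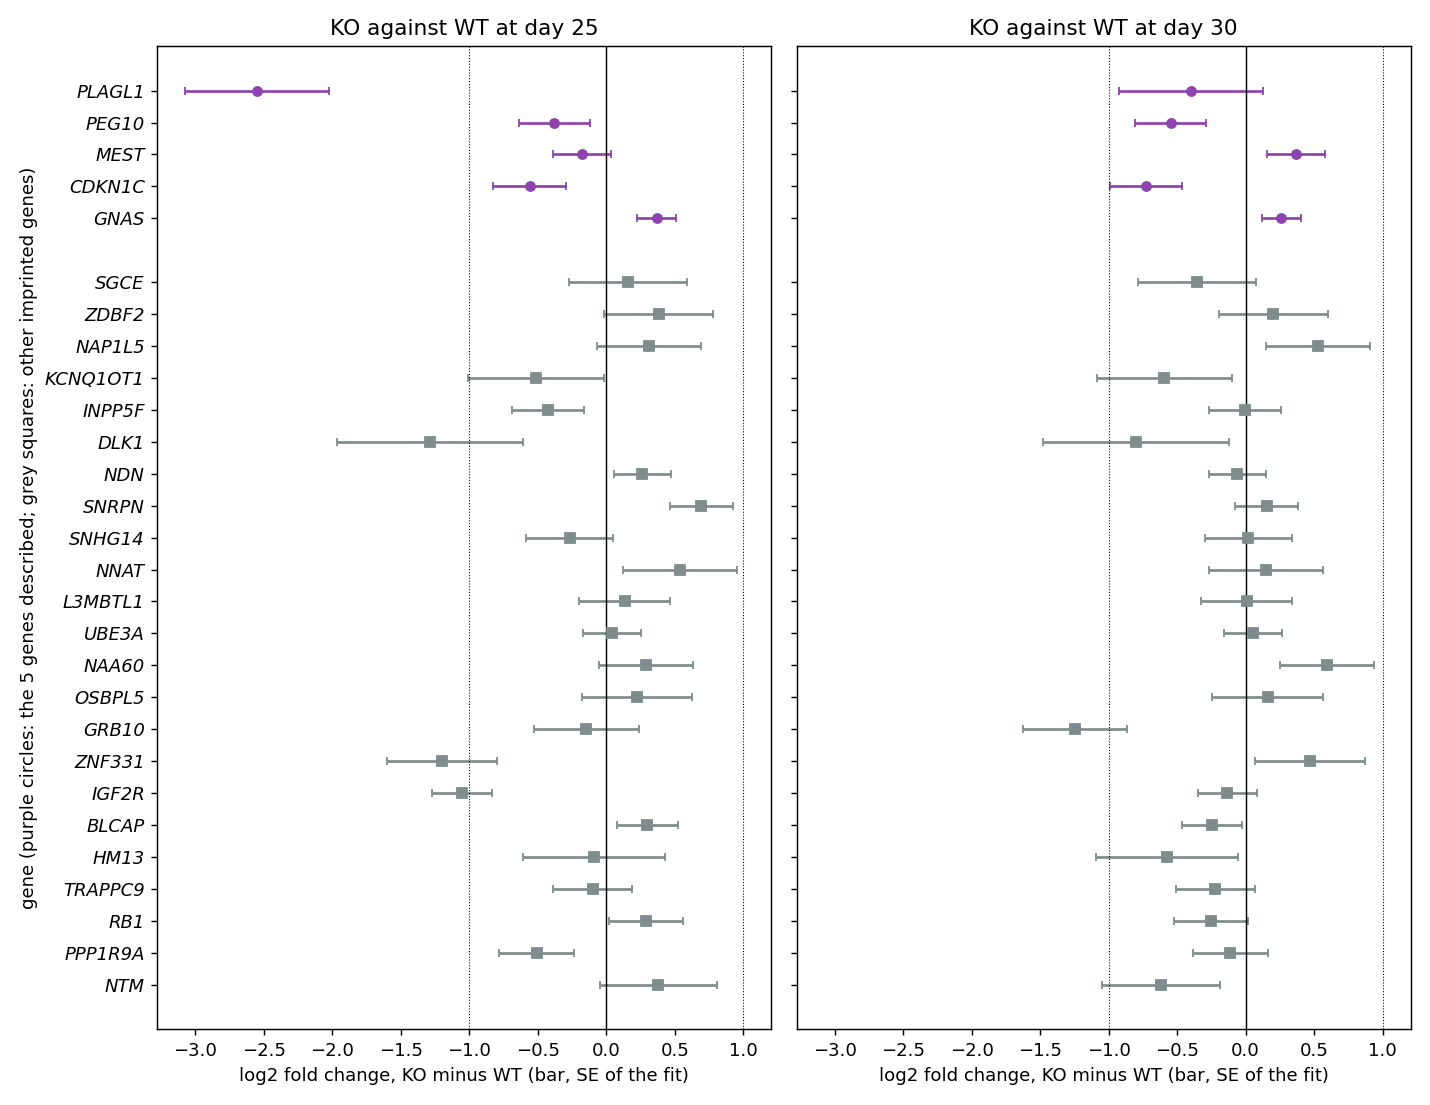
log2 fold change of KO minus WT (horizontal axis, points, with the SE of the fit as bars) at day 25 and day 30 for the 5 genes (purple circles) and 23 other imprinted genes (grey squares); dotted lines mark 2-fold. PLAGL1, chosen for its day 25 value, lies at -2.55 at day 25 and at -0.40 at day 30.

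Over the 12 libraries, the 5 genes whose pattern was most like that of PLAGL1 did not include the other 4 genes. The likeness of the 23 other imprinted genes, IGF2R among them, to PLAGL1 is not reported here. By Pearson's r of log2(value + 1), the first 5 were CEP68 (a centrosome linker protein, 0.949), ZNF250 (a zinc finger protein, 0.920), POU3F3 (a neural POU domain transcription factor, 0.909), LIPG (endothelial lipase, 0.898) and UBP1 (a transcription factor, 0.895). POU3F3 was 271 and 203 in WT, 90 and 26 in KO and 182 and 273 in OE at day 25. Its low library was the same KO library as for PLAGL1. CDKN1C was the most like PLAGL1 among the other 4 genes (r = 0.451), and 1631 of 9496 genes had a higher r. PEG10 had 0.383, MEST -0.02 and GNAS -0.710, and r between CDKN1C and GNAS was -0.721. These are descriptions over 12 libraries that share genotype, day and the spread of the KO replicates. The 12 include the WT and KO libraries of day 25 whose values led to the choice of PLAGL1. The r values thus do not test whether its pattern was shared.

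**Figure D4:**
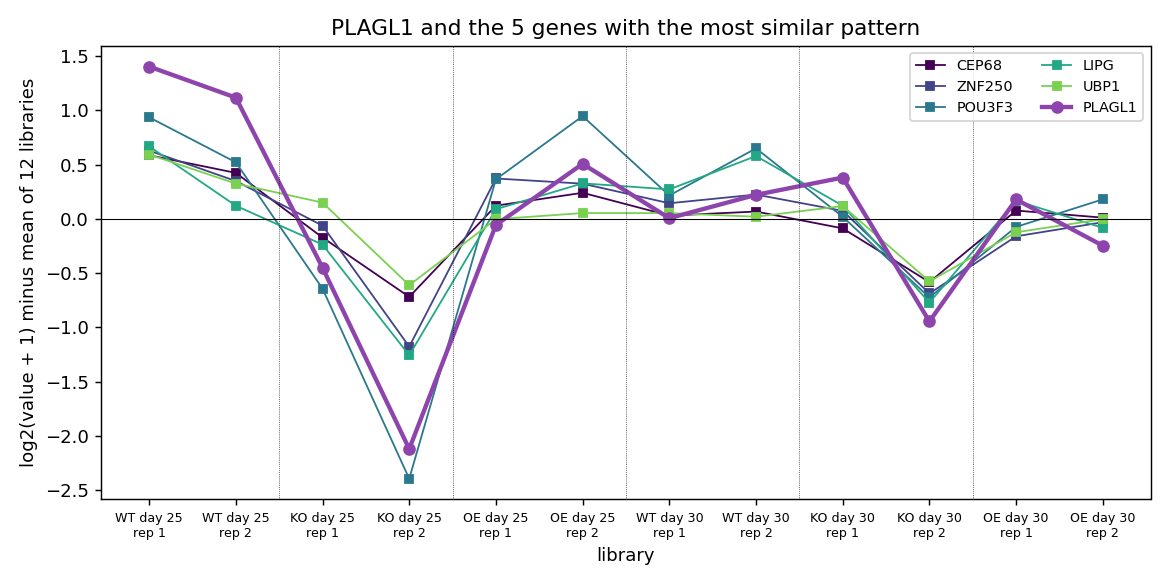
log2(value + 1) minus the mean of the 12 libraries (vertical axis) in each library (horizontal axis) for PLAGL1 (purple circles) and the 5 genes with the highest Pearson's r to it (squares); lines only join the values of a gene. All 6 genes are lowest in KO day 25 replicate 2, where PLAGL1 is 26.

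Genes near each imprinted gene were read as well, since imprinted genes lie in clusters. Within 500 kb of PLAGL1, 5 genes are listed, and 0 of them passed the looser threshold in KO against WT at either day (background 5.31% and 2.94%). FUCA2, a fucosidase 428.6 kb away, passed it in OE against KO at day 25 (lower in OE, limma adjusted p = 0.111, background 8.57%). The nearest were SF3B5, a splicing factor subunit 30.3 kb away (0.20 at day 25), and PHACTR2, a phosphatase and actin regulator 109.1 kb away (-0.77). In KO at day 25, PHACTR2, PEX3 (-0.70) and UTRN (-0.52) lay below WT without overlap (background 21.3%). FUCA2 (0.86) lay above WT without overlap (background 19.3%), and SF3B5 overlapped. Near PEG10, SGCE (epsilon-sarcoglycan, imprinted with it) was 68 and 102 in WT and 82 and 106 in KO at day 25, and its log2 fold change was 0.16. The fibrillar collagen gene COL1A2, 225.1 kb from PEG10, was 198 and 195 in WT and 352 and 734 in KO at day 25 (1.37), and it was the 1 neighbour of the 25 around the 5 genes that passed the looser threshold in that comparison (background 5.31%). Near MEST, COPG2 was at 0.33 and CEP41 at 0.28. Near CDKN1C, KCNQ1OT1 was at -0.51 and NAP1L4 at -0.40, and near GNAS, STX16 was at -0.60 and NELFCD at 0.12, all as log2 fold changes of KO against WT at day 25.

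**Figure D5:**
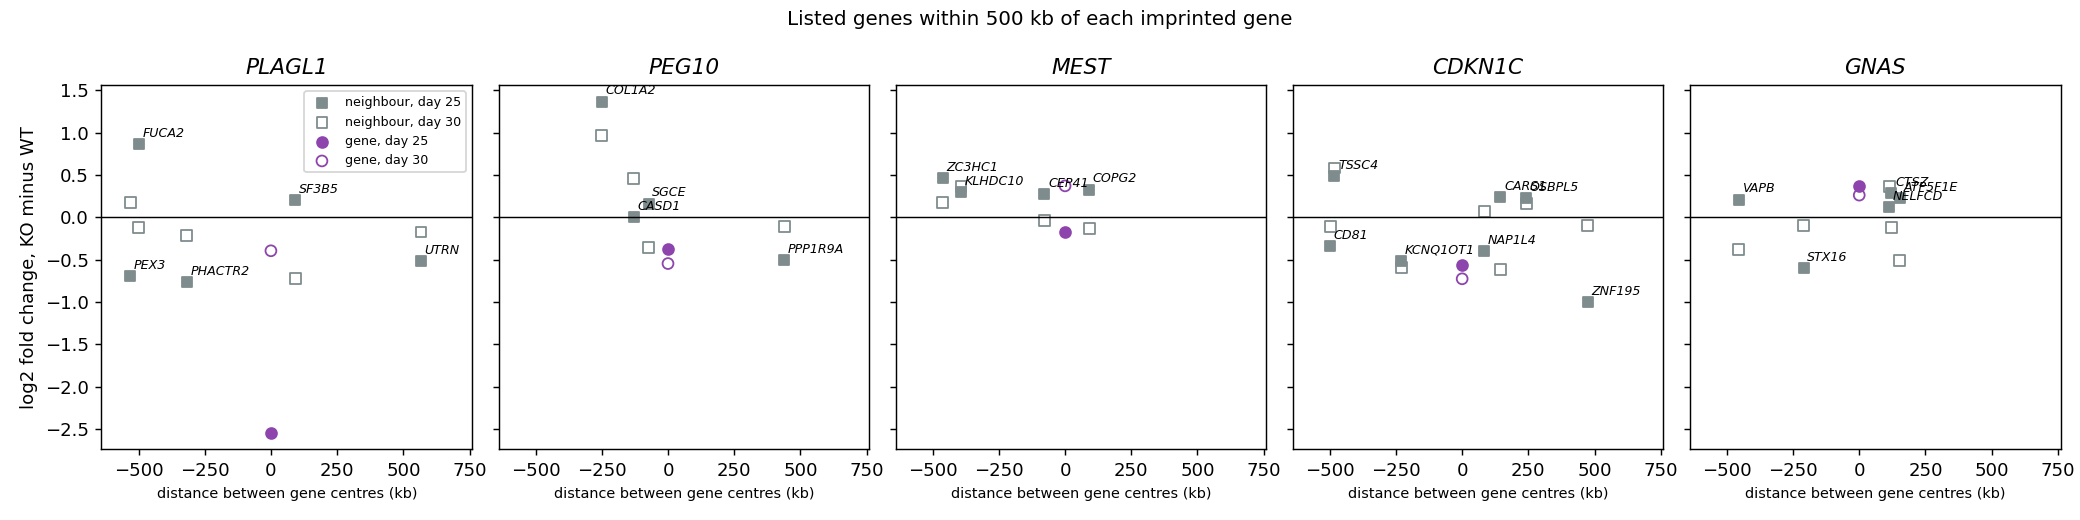
log2 fold change of KO minus WT (vertical axis) for each imprinted gene (purple circle, at 0) and the genes listed within 500 kb of it (grey squares, named) against the distance between gene centres in kb; filled marks are day 25 and open marks day 30. The neighbours of PLAGL1 lie between -0.77 and 0.86 at day 25.

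Functional relatives of the 5 genes were read from further lists, and limma called 0 genes of them in KO against WT or OE against KO at either day. PLAGL2, the one PLAG family relative in the tables, was 226 and 196 in WT, 204 and 173 in KO and 226 and 134 in OE at day 25, so it did not share the PLAGL1 pattern of non-overlapping groups. Of 11 genes that act on imprints or DNA methylation (TET1, TET2 and TET3 included), 0 passed the looser threshold in KO against WT at either day. Of all genes, 5.31% and 2.94% did. At an unadjusted p under 0.05 there were 2 (background 13.4%) at day 25 and 0 (background 7.36%) at day 30. TET1, which oxidises methylcytosine, passed the looser threshold in OE against KO at day 30 (1.51, limma adjusted p = 0.428, background 5.38%). It was 303 and 48 in KO and 330 and 366 in OE, so the low KO library sets that value. Of 10 retrotransposon-derived relatives of PEG10, 1 was lower at the looser threshold in KO against WT at day 25 (background 2.84%). This was RTL5, with 122 and 130 in WT, 44 and 60 in KO and 117 and 125 in OE (KO against WT -1.28, limma adjusted p = 0.206). RTL5 also passed in OE against KO at day 25 (1.22, limma adjusted p = 0.126, background 8.57%).

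Of 12 CDK inhibitors, G1 cyclins and partners of CDKN1C, 0 passed the looser threshold in KO against WT at either day, and p under 0.05 before adjustment was reached by 5 at day 25 (background 13.4%) and 1 at day 30 (background 7.36%). CCND2, a D-type cyclin, was below all WT and OE libraries in all 4 KO libraries, as CDKN1C was, with 1157, 1043, 822 and 1010 in WT, 709, 480, 764 and 649 in KO and 1042, 1212, 786 and 895 in OE. It was singled out after its values were seen. The relatives of CDKN1C in the CIP/KIP family did not show this: CDKN1A was 52 and 87 in WT and 64 and 118 in KO at day 25, and CDKN1B was 112 and 176 in WT and 104 and 168 in KO. Of 29 G protein and cAMP kinase genes, 1 was higher at the looser threshold in KO against WT at day 25, GNG3, a G protein gamma subunit of neurons (1.25, adjusted p = 0.239), where 2.46% of all genes were higher by that threshold. Of 20 genes of the IGF axis, 1 was lower at the looser threshold in KO against WT at day 25 (background 2.84%). This was IGF1R, the IGF1 receptor, with 551 and 438 in WT, 160 and 288 in KO and 458 and 387 in OE (-1.19, limma adjusted p = 0.171). IGF2BP1, an RNA-binding protein that binds IGF2 transcripts, was below all WT and OE libraries in all 4 KO libraries (1.08% of genes were). It was 610 and 510 in WT and 286 and 298 in KO at day 25. In KO against WT at day 30, IGF2BP1 was lower and IRS4 higher at the looser threshold, which 2.94% of all genes passed.

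Summed marker levels of progenitors and dividing cells were also lower in KO than in WT at day 25, with OE above KO. Not every marker followed its sum. Of the 9 listed progenitor markers, KO lay below WT without overlap for 6 (background 21.3%). OE lay above KO without overlap for 6 (24.5%) and below it for 1 (22.4%). This last was SOX9, with 326 and 278 in KO and 223 and 220 in OE. PAX6 overlapped, with 570 and 255 in KO and 410 and 476 in OE. The summed level of the 9 listed neural progenitor markers of 12 was 8170 to 14334 in WT, 4253 to 6721 in KO and 7315 to 9494 in OE at day 25. VIM sets much of this sum, being 9910 in WT day 25 replicate 1 and 3452 in replicate 2. Without VIM the sum was 4424 to 4718 in WT, 1583 to 3265 in KO and 3863 to 6042 in OE at day 25. With VIM, at day 30 it was 7123 to 8441 in WT, 5862 to 8267 in KO and 7812 to 7923 in OE. The summed level of the 9 listed proliferation markers of 10 was 2644 to 2933 in WT, 1730 to 1920 in KO and 3111 to 3293 in OE at day 25, and 2080 to 2457, 1780 to 2317 and 3065 to 3336 at day 30. Neuron markers summed to 7463 to 8759 in WT, 9014 to 11792 in KO and 9531 to 9665 in OE at day 25. Among single markers, SOX2 was 220 to 293 in WT and 134 to 139 in KO at day 25, and MKI67 was 461 to 504 and 113 to 220. The 4 listed mesenchyme markers of 10 overlapped between WT (802 to 928) and KO (803 to 1187) at day 25, and so did the 8 listed choroid plexus markers (2267 to 3226 and 2124 to 5687). That sum is carried by TTR, and without TTR it was 1345 to 1348 in WT and 1583 to 2234 in KO. Of these 8 markers, 2 were higher in KO than in WT without overlap at day 25 and 1 was lower, while the others overlapped. The higher ones were ATP1B1, a sodium pump subunit (WT 130 and 124, KO 403 and 352), and CLDN1, a tight junction protein (WT 172 and 155, KO 460 and 232). Both are part of the sum without TTR. The lower one was OTX2 (WT 708 and 606, KO 450 and 523). The 5 listed cell stress markers of 10 summed to 2107 to 2224 in WT, 1560 to 1918 in KO and 2030 to 2760 in OE at day 25. KO replicates 1 and 2 also differed in single markers. At day 25 NES was 1159 and 340, NOTCH1 285 and 84 and PTPRZ1 462 and 148 in them. HES1 (28 and 66) went the other way. At day 30 NOTCH1 was 408 and 84 and PTPRZ1 1261 and 174, while NES was closer (1259 and 1130). TTR was 541 and 3453 at day 25 and 2672 and 638 at day 30. Replicate 2 held the lower PLAGL1 value of KO at both days. The part of these markers in the PLAGL1, CDKN1C and IGF2R values was not tested.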

How the data were processed

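RNA-seq of 12 libraries (6 groups of 2) was analysed. The authors deposited 1 table per library with a normalized expression score per gene, rounded to whole numbers. Its normalization is not given in the sources used here. The submitters' processing notes name hg19, bcl2fastq, RSEM and Bowtie2 without roles, while the positions are on GRCh38 (9386 of 9386 symbols matched to RefSeq GRCh38.p14 overlapped their gene). The sums of values were 1788282 to 1798596 with 687 to 690 distinct values, and depth is unknown. As these are not counts, log2(value + 1) was fitted with limma 3.58.1 in R 4.3.3 with a mean per group and an intensity trend (6 residual degrees of freedom). A filter of a value of at least 1 in 2 libraries removed 0 of 9497 genes. Adjustment was by Benjamini-Hochberg across the 9497 genes of a comparison. Genes were called where the adjusted p was under 0.05 with at least 2-fold, and the looser threshold was an unadjusted p under 0.05 and at least 2-fold. P-values measure the spread between libraries, which may be technical. An exact permutation test of 2 against 2 libraries cannot go below p = 0.333 (two-sided) and was not used.

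The genes and lists were chosen with earlier results of these data known. The 5 genes get p-values only for day 30 comparisons and OE between days. The rule named all listed imprinted genes, up to 3 called genes of each further list, the PLAG family, the 5 genes most correlated with PLAGL1 and nearest neighbours. No gene of the further lists other than cell type markers was called in KO against WT or OE against KO, so those named from them were picked once values were known. The fit was also run on simulated data, and the outcome is not reported here. Alternatives were other pseudocounts, filters, normalizations, library weights, a replicate block, fewer libraries and leaving out each library. Replicate numbers did not pair the libraries: of 15 pairs of groups, 1 correlation of deviations was over 0.1 (range -0.214 to 0.262).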

Additional observations from a re-analysis of the deposited data

Results flagged for a closer look

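ZNF331 and L3MBTL1 were picked out because every library of a group lay on one side of the other group at day 25 and on the opposite side at day 30. For ZNF331, KO against WT was -1.20 at day 25 and 0.47 at day 30, where WT was 70 and 68 against 48 and 18 for KO, then 48 and 43 against 67 and 60. The difference between the days was 1.67 (SE 0.57), with a limma adjusted p of 0.802, so it did not pass. OE against KO was 0.94 at day 25 and -0.76 at day 30 for ZNF331 (difference -1.71, SE 0.57, adjusted p = 0.848). For L3MBTL1, a chromatin-binding protein expressed from the paternal allele, OE against KO was -0.74 at day 25 and 0.22 at day 30 (difference 0.96, SE 0.47, adjusted p = 0.848). Such opposite days without overlap were shown by 3.75% of all genes in KO against WT and by 3.47% in OE against KO. These comparisons share the KO libraries.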

How the results depend on the processing

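Under the other pseudocounts, filters and normalizations, library weights, the replicate block and a fit of only the libraries compared, the 5 genes kept the direction of every value, and 0 of 5 were called in the day 30 comparisons. The replicate block left the count of imprinted genes past the looser threshold at 2 in KO against WT at day 25 and 1 at day 30, and changed no other call. With only the libraries compared, the latter count was 0, and at day 25 the 2 genes were IGF2R and DLK1 in place of IGF2R and ZNF331. The KO replicates spread widely, and leaving out 1 library leaves 1 that is assumed to vary like the other groups. With 1 library left out, called imprinted genes ranged from 0 to 1 (ZNF331) in KO against WT at day 25, 0 to 2 at day 30 (GRB10 and NTM, without KO day 30 replicate 1), 0 to 1 (ZNF331) in OE against KO at day 25 and 0 to 4 at day 30 (DLK1, GRB10, NNAT and ZDBF2, without KO day 30 replicate 1). Past the looser threshold the ranges were 0 to 3, 1 to 7, 0 to 2 and 0 to 5, and 0 to 2 in OE against WT at day 25. Directions turned for PLAGL1 in KO against WT at day 30 (-1.06 to 0.27) and OE against KO at day 30 (-0.42 to 0.91), both without KO day 30 replicate 2, in OE against WT at day 30 (-0.36 to 0.065, turned without OE day 30 replicate 2) and in OE between days (-0.54 to 0.022, turned without OE day 25 replicate 2). They turned for PEG10 in OE against KO at day 30 (-0.48 to 0.14, turned to 0.094 without KO day 30 replicate 1 and to 0.14 without OE day 30 replicate 1) and in OE between days (-0.60 to 0.021, turned without OE day 30 replicate 1). The untested day 25 values of OE against WT also changed sign, for CDKN1C (-0.10 to 0.36, negative without WT day 25 replicate 1 or OE day 25 replicate 2) and PEG10 (-0.19 to 0.31, negative without WT day 25 replicate 2 or OE day 25 replicate 1). The cause was not tested.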
